A study of Mus musculus with 16 samples.

Results

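The genes described here are the histocompatibility genes of mouse adipose tissue. They were chosen by name alone: all 29 genes of the expression table whose symbol starts with H2-, plus B2m, Cd74 and Ciita, which makes 32 of the 17883 genes listed. Of these, 18 are class I genes (symbols with K, D, Q, T, M or Bl), 11 are class II genes or their partners (H2-A, H2-E, H2-DM and H2-O genes, Cd74 and Ciita), and 3 stand alone: B2m, H2-Q10 and H2-Ke6. H2-Ke6 carries only the name of the region and encodes an enzyme of steroid and fatty acid metabolism, so it was kept apart. In the RefSeq annotation of GRCm38.p6 all 32 had an entry, 29 of them on chromosome 17, with B2m on chromosome 2, Ciita on chromosome 16 and Cd74 on chromosome 18. Among the class I genes, H2-Bl and H2-T10 are annotated as transcribed pseudogenes.

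The study asked how METTL3, the enzyme that writes N6-methyladenosine (m6A) on mRNA, takes part in the beiging of white fat, in which adipocytes acquire heat-producing properties. All mice were C57BL/6, 8 weeks old, and homozygous for a floxed Mettl3 allele (METTL3 flox/flox). WT mice carried no Cre and were kept untreated (WT RT) or housed singly at 4 °C for 7 days (WT cold), and mice labelled cKO carried Adipoq-Cre +/- and went through the same cold (cKO cold). Adipoq-Cre acts in adipocytes, so other cells of the tissue keep the gene. Each condition had 2 libraries of input RNA and 2 of anti-m6A immunoprecipitate, and both cold conditions had 2 of ribosome footprints, 16 in all. The labels name the tissue only as adipose and do not say whether the 2 libraries of a group came from separate animals, so p-values measure the spread between libraries, which may be technical.

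Class I molecules carry peptides from inside a cell to its surface for CD8 T cells and natural killer cells. Their heavy chains (classical H2-K1 and H2-D1, and the non-classical H2-Q, H2-T and H2-M chains) pair with the light chain encoded by B2m, and nearly all nucleated cells make them. Class II molecules present peptides taken up from outside to CD4 T cells, and are made mainly by dendritic cells, macrophages and B cells. The invariant chain Cd74 escorts the alpha and beta chains, H2-DM loads the peptide, H2-O holds H2-DM back, chiefly in B cells, and Ciita is the transcriptional coactivator that switches the whole class II set on. H2-Q10 is the odd one among class I genes: it encodes a secreted chain that is best known as a product of the liver.

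Library facts that bear on all the results were as follows. Whole reads could be recovered from the values: inputs held 3895031 to 8673393 reads, immunoprecipitates 4883129 to 6426541 and footprints at least 1676208 to 2461267. The sum of 6 adipocyte markers was high throughout (7751 to 10856 RPKM in the inputs), with Fabp4 and Cfd the largest parts. Lep, the lowest, ran from 5.72 RPKM (WT cold input replicate 2) to 245 RPKM (cKO cold input replicate 1). RPKM is a read count scaled by gene length and library depth. Markers of other cells moved with the groups. The summed RPKM of 8 B cell markers was 660 and 615 in room-temperature inputs. In cold inputs the sum was 0.61 and 0.16 for WT and 4.08 and 1.34 for cKO, where 4, 6, 2 and 5 of the 8 markers were at 0, yet in the footprints of these groups it was 312, 195, 616 and 181. For 8 T cell markers the input sums were 342 and 314 (WT RT), 1.68 and 1.62 (WT cold), then 6.89 and 6.88 (cKO cold), and the footprint sums ran from 234 to 687. Markers of lymph node stroma and venules (5 genes) summed to 702 and 682 at room temperature and to between 7.73 and 34.1 in cold inputs. For 12 macrophage markers the input sums were 833 and 889 (WT RT), 223 and 217 (WT cold), then 1559 and 757 (cKO cold). For 10 dendritic cell markers they were 152 in both WT RT inputs, 10.9 and 6.72 (WT cold), then 23.7 and 21.8 (cKO cold), and the footprint sums ran from 94.1 to 309. With limma all 10 dendritic cell markers were lower in the cold comparison of WT inputs, beside 51.2% of all genes tested. Their median log2 change was -2.72, beside -0.67 for all genes. With median-ratio scaling 8 were lower, beside 20.5%. In cKO cold 2 were higher than in WT cold, beside 23.6% of all genes, Itgax (2.21 ± 0.46) and Clec9a (1.10 ± 0.23). Of the 11 macrophage markers tested, 9 were lower in the cold comparison, and 5 with median-ratio scaling. Between cKO cold and WT cold inputs 9 were higher, with a median of 1.98 beside 0.40 for all genes. With median-ratio scaling 8 were higher, beside 5.97%. Footprints of 4 were higher, beside 5.61%, and of none with median-ratio scaling. All WT RT libraries also carry codes of another series than the cold libraries, so an effect of cold cannot be told apart from one of the code series. The targeted gene did not separate the genotypes: Mettl3 was at 5.24 and 3.66 RPKM in WT cold inputs and 3.83 and 1.90 in those labelled cKO, and at 4.60 and 4.82 against 8.99 and 5.22 in footprints. In a bulk tissue, fewer cells of a type and less RNA per cell cannot be told apart. The part of these cell markers in the results below was not tested.

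At room temperature the members ranged from 0 to 3198 RPKM. Values in RPKM of input RNA are per transcript length and can be set side by side. B2m led at 3135 and 3198 RPKM, followed by Cd74 at 1469 and 1613, H2-D1 at 812 and 847 and H2-K1 at 756 and 806. The class II chains H2-Ab1 (555 and 542), H2-Aa (520 and 561) and H2-Eb1 (272 and 289) came next, then H2-Q7 (131 and 143), H2-Q6 (109 and 116), H2-Q4 (109 and 111) and H2-T23 (104 and 106), the Qa-1 chain that engages inhibitory receptors of natural killer cells. H2-Ab1 and H2-Aa overlapped, as did H2-Q6 and H2-Q4, and the gap between H2-D1 and H2-K1 was smaller than the spread within either, so these neighbours have no firm order. The other tested members lay between 7.21 RPKM (H2-T10) and 70.5 RPKM (H2-DMb2). Class I paralogs are near copies of each other, and how the authors' counting treated reads that match several of them is not given in the sources used here, so the division of reads among H2-Q, H2-T, H2-K1 and H2-D1 is uncertain.

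**Figure D1:**
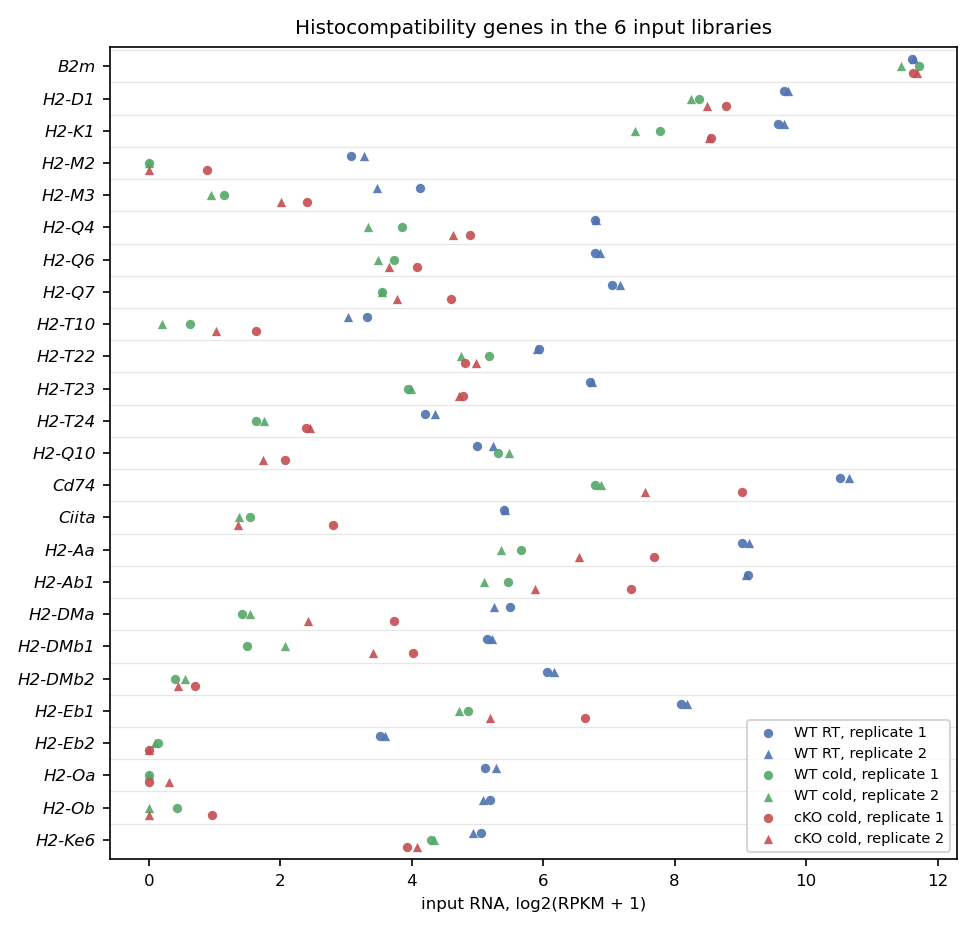
Level of each of the 25 members that passed the filter, as log2(RPKM + 1), in the 6 input libraries (circles replicate 1, triangles replicate 2; blue WT RT, green WT cold, red cKO cold). WT RT points lie to the right of the cold points for every class II gene, B2m stays between 2794 and 3346 RPKM, and H2-Q10 has its cKO points alone on the left.

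A gene entered the fits if it reached 1 RPKM in at least 2 libraries, which left 25 of the 32 members (11 of 18 class I, all 11 class II, and B2m, H2-Q10 and H2-Ke6). The 7 others were H2-Bl, H2-M1, H2-M5, H2-M9, H2-Q1, H2-Q2 and H2-T3, whose highest value in any of the 16 libraries was 1.26 RPKM (H2-M9). H2-M1 was above 0 in only 1 of the 16 libraries, WT cold footprint replicate 2, at 1.02 RPKM. Tests were made with limma on log2(RPKM + 1), and a fold change on that scale understates the change of low genes. Each difference below is a log2 fold change ± SE with 2 libraries a group, called where the Benjamini-Hochberg adjusted p over all genes tested was under 0.05. For H2-M2, H2-Oa, H2-Ob, H2-DMb2 and H2-Eb2, the 1 RPKM was reached in WT RT inputs only, so these 5 had to lie lower in the cold.

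In the cold, WT tissue held far less class II RNA. Cd74 was at 109 and 116 RPKM against 1469 and 1613, a difference of -3.76 ± 0.42 (limma adjusted p = 0.000592). H2-Ab1 was at 43.3 and 33.2 RPKM against 555 and 542 (-3.82 ± 0.42), H2-Aa at 49.6 and 40.2 against 520 and 561 (-3.57 ± 0.34), and H2-Eb1 at 27.8 and 25.4 against 272 and 289 (-3.35 ± 0.41). In none of these 4 genes did the groups overlap, and the fold changes span a 10.2-fold to 14.1-fold fall. The peptide-loading chains H2-DMa (1.67 and 1.90 against 44.1 and 37.2 RPKM; -3.90 ± 0.40) and H2-DMb1 (1.81 and 3.20 against 34.4 and 36.4; -3.40 ± 0.27) fell as well. Ciita, their common coactivator, went from 41.6 and 41.7 RPKM to 1.90 and 1.59 (-3.96 ± 0.43, limma adjusted p = 0.000534).

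The other 4 class II genes lay at the floor of the assay in the cold. H2-DMb2, a second H2-DM beta chain, was at 0.324 and 0.473 RPKM against 65.8 and 70.5 at room temperature (-5.63 ± 0.20). H2-Oa, the alpha chain of H2-O, had 587 reads over the WT RT inputs and none over the WT cold inputs, so it was at least 170-fold lower when 3 reads over a group are taken as the floor. H2-Ob, its beta chain, was at 35.6 and 32.9 RPKM against 0.349 and 0 (-4.92 ± 0.34), and H2-Eb2 at 10.5 and 11.1 against 0.102 and 0.0662 (-3.44 ± 0.19). None of the 4 rose above 0.940 RPKM in a cold input library of either genotype. The grouping of these 4 was made after their values were seen. The B cell markers given above were at or near 0 in the same libraries.

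Promoter sequences from RefSeq (GRCm38.p6) show a layout found in part of the class II windows. Of the 32 members, 25 had a promoter window (250 bases before to 50 after the start), and H2-Ab1, H2-Q1, H2-T24, H2-T10, H2-Bl, Cd74 and Ciita had none. The 25 had 28 windows, and a member was counted if any of its windows matched, whereas shares over the table are per window. The X box core (AGNAACNGA) followed on the same strand, after 10 to 30 bases, by a Y box (ATTGG), is the layout through which RFX and NF-Y recruit Ciita. It was in 3 of the 8 class II genes with a window, in 0 of the 14 class I genes and in 0.07% of all 32851 windows. The 3 genes, H2-Eb1, H2-Eb2 and H2-DMb1, had 24, 24 and 25 bases between the boxes, and the X box core, with or without a Y box, was in 4 of the 8. The 2 stretches below are shown because the pair sits at almost the same spacing in a peptide-binding chain (H2-Eb1) and in a loading chain (H2-DMb1). They lie at chr17:34305765-34305822 and chr17:34153086-34153144, plus strand, upstream of the annotated gene, and capitals mark the X box core and the Y box.
H2-Eb1: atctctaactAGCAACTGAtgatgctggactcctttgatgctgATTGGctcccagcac
H2-DMb1: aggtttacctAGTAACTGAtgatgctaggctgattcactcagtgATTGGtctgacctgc
A match describes the letters only, and the window of a gene with no match, such as H2-Aa, says nothing of which factors bind it.

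Class I heavy chains fell in the cold too, by less for the classical pair. H2-K1 was at 219 and 167 RPKM in WT cold against 756 and 806 in WT RT (-2.03 ± 0.16, limma adjusted p = 0.000166), and H2-D1 at 330 and 304 against 812 and 847 (-1.39 ± 0.14, limma adjusted p = 0.000431). The non-classical Qa-2 chains fell further: H2-Q7 from 131 and 143 RPKM to 10.7 and 10.6 (-3.56 ± 0.25), H2-Q6 from 109 and 116 to 12.3 and 10.2 (-3.22 ± 0.18). H2-Q4 went from 109 and 111 RPKM to 13.5 and 9.14 (-3.19 ± 0.20). Among T-region genes, H2-T23 was at 14.3 and 14.9 RPKM in WT cold (-2.76 ± 0.12), H2-T24 at 2.11 and 2.37 against 17.3 and 19.5 (-2.58 ± 0.18) and the pseudogene H2-T10 at 0.545 and 0.152 against 8.98 and 7.21 (-2.76 ± 0.29). H2-T22, a ligand of gamma delta T cells, fell least, from 60.2 and 58.9 RPKM to 35.2 and 26.0 (-0.95 ± 0.17). H2-M3, which presents formylated peptides, went from 16.4 and 10.1 RPKM to 1.20 and 0.937 (-2.75 ± 0.28). H2-M2 had 158 reads over the WT RT inputs and none over WT cold, at least 45.6-fold lower.

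B2m and H2-Q10 did not fall with them. B2m stood at 3346 and 2794 RPKM in WT cold, around its WT RT values (-0.05 ± 0.17, limma adjusted p = 0.815). With the heavy chains down, B2m RNA went from 2.0 and 1.9 times the summed RPKM of H2-K1 and H2-D1 at room temperature to 6.1 and 5.9 times in the cold. H2-Q10 was at 38.8 and 43.6 RPKM in WT cold, above both WT RT values of 30.8 and 36.6, by 0.29 ± 0.18 (limma adjusted p = 0.218).

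Of the 25 members tested, 23 were lower in the cold and none higher, beside 51.2% of the 12667 genes tested that were lower and 6.52% that were higher. Without the 5 that entered through WT RT alone, 18 of 20 were lower. The median over all genes was -0.67, which scaling by median ratios brought to -0.06, and on that scaling 21 members were lower, beside 20.5% of all genes, and 2 were higher, B2m (0.70, limma adjusted p = 0.0278) and H2-Q10 (1.02, limma adjusted p = 0.00799). On the same scaling H2-T22 was no longer called (-0.22) and H2-Ke6, at 18.5 and 19.2 RPKM against 32.1 and 29.4, moved from -0.68 ± 0.14 to 0.04. H2-K1 (-1.28) and H2-D1 (-0.64) stayed called.

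**Figure D2:**
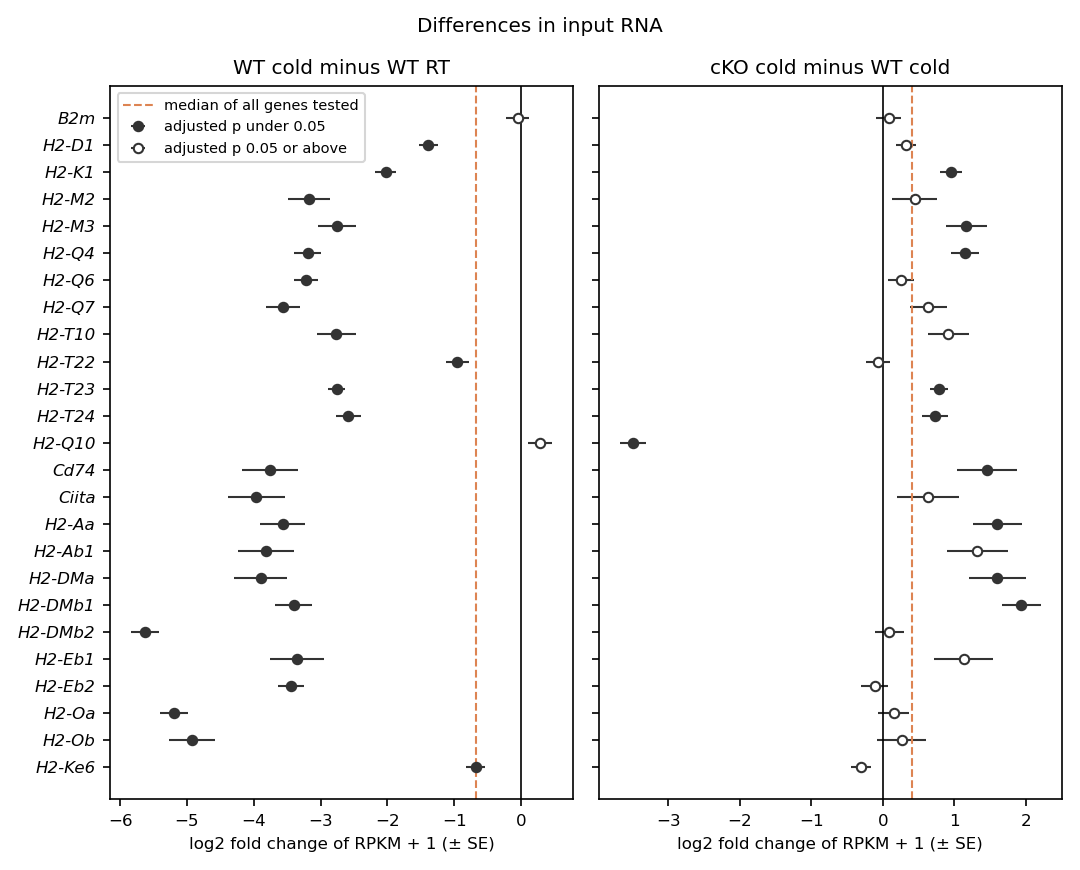
Log2 fold change of RPKM + 1 in input RNA with its SE, 2 libraries a group, for WT cold against WT RT (left) and cKO cold against WT cold (right); filled points have a limma adjusted p under 0.05, and the dashed line is the median over all 12667 genes. On the left all points but B2m and H2-Q10 lie at or left of the median of -0.67, and on the right H2-Q10 alone lies far to the left, at -3.49.

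In the cold, inputs labelled cKO held more RNA of several class I and class II genes than WT cold inputs, the same WT cold libraries that served in the cold comparison. H2-Aa was at 206 and 91.9 RPKM against 49.6 and 40.2 (1.60 ± 0.34, limma adjusted p = 0.0187), H2-DMb1 at 15.2 and 9.69 against 1.81 and 3.20 (1.94 ± 0.27, limma adjusted p = 0.00692) and H2-DMa at 12.3 and 4.34 against 1.67 and 1.90 (1.60 ± 0.40, limma adjusted p = 0.0291). Cd74 was at 522 and 186 RPKM against 109 and 116 (1.46 ± 0.42, limma adjusted p = 0.044). In all 4 genes replicate 1 of cKO cold was the highest of the 4 libraries and replicate 2 came second. Without that replicate 1 the differences were smaller, at 0.72 for Cd74, 1.03 for H2-Aa and 0.94 for H2-DMa. The call of H2-DMb1 held with each input library left out, whereas that of H2-Aa was lost without WT cold replicate 2 (limma adjusted p = 0.0796), that of H2-DMa without either WT cold replicate (up to 0.0837) and that of Cd74 without any 1 of the 4 WT inputs (up to 0.122). H2-Ab1 (160 and 57.6 RPKM against 43.3 and 33.2; 1.32 ± 0.42) and H2-Eb1 (98.7 and 35.5 against 27.8 and 25.4; 1.13 ± 0.41) had the same order and missed the threshold (limma adjusted p = 0.0584 and 0.0818). Ciita, at 6.02 and 1.58 RPKM against 1.90 and 1.59, was high in replicate 1 only (0.63 ± 0.43, limma adjusted p = 0.293). The 12 macrophage markers also summed higher in replicate 1 than in replicate 2 of cKO cold, at 1559 and 757 RPKM, and the 10 dendritic cell markers stood at 23.7 and 21.8 RPKM there against 10.9 and 6.72.

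Class II genes at the floor in WT cold stayed there in cKO cold. H2-Oa was at 0 and 0.236 RPKM, H2-Ob at 0.940 and 0, H2-DMb2 at 0.623 and 0.361, and H2-Eb2 at 0 in both. Their differences from WT cold lay between -0.12 and 0.26, and none was called.

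Among class I genes, H2-K1 was at 375 and 368 RPKM in cKO cold against 219 and 167 (0.96 ± 0.16, limma adjusted p = 0.0098). H2-Q4 was at 28.6 and 23.6 RPKM against 13.5 and 9.14 (1.15 ± 0.20, limma adjusted p = 0.0106). H2-T23, at 26.5 and 25.5 RPKM against 14.3 and 14.9 (0.79 ± 0.12), H2-T24, at 4.27 and 4.47 against 2.11 and 2.37 (0.73 ± 0.18), and H2-M3, at 4.32 and 3.03 against 1.20 and 0.937 (1.17 ± 0.28), were also called higher. The call of H2-T24 was lost with any 1 of the 6 inputs left out (limma adjusted p = 0.0512 to 0.0967), and that of H2-M3 without WT cold replicate 2 or cKO cold replicate 1 (up to 0.102). H2-D1, at 438 and 361 RPKM against 330 and 304, had a difference of 0.33 ± 0.14 that was not called (limma adjusted p = 0.125). H2-Q7 (23.1 and 12.7 RPKM; 0.64 ± 0.25), H2-Q6 (15.8 and 11.6; 0.25 ± 0.18), H2-T10 (2.09 and 1.04; 0.91 ± 0.29), H2-T22 (27.2 and 30.6; -0.07 ± 0.17) and H2-M2 (0.854 and 0; 0.45 ± 0.31) were not called. B2m, at 3164 and 3300 RPKM, was not called either (0.08 ± 0.17, limma adjusted p = 0.743), nor was H2-Ke6, at 14.3 and 15.9 RPKM (-0.31 ± 0.14).

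In total 9 members were higher, beside 23.6% of all genes tested, and 1 was lower, beside 2.92%. The share of members that were higher, 9 of 25, is read against a median over all genes of 0.40. With median-ratio scaling that median was 0.02, and 2 members were higher (beside 5.97% of all genes), H2-DMb1 (1.55, limma adjusted p = 0.0227) and H2-Q4 (0.69, limma adjusted p = 0.048). H2-K1 was then at 0.46 (limma adjusted p = 0.0818) and 2 were lower (beside 6.73%), H2-Q10 and now H2-Ke6 (-0.78, limma adjusted p = 0.0204). Without WT cold input replicate 2, 4 members were higher and 1 lower.

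H2-Q10 went its own way. Its input RNA was at 38.8 and 43.6 RPKM in WT cold and at 3.23 and 2.32 in cKO cold, from 670 and 387 reads against 29 and 18. The difference of -3.49 ± 0.18 (limma adjusted p = 0.0019) corresponds to an 11.2-fold fall on the log2(RPKM + 1) scale, and scaling by median ratios gave -3.96 (limma adjusted p = 0.0036). The groups were far apart: neither cKO value came near the lowest WT value, and WT RT libraries, at 30.8 and 36.6 RPKM, sat with WT cold. Its neighbours in the Q region, H2-Q4, H2-Q6 and H2-Q7, had 9.14 to 13.5 RPKM in WT cold and 11.6 to 28.6 in cKO cold. The gene lies at chr17:35470089-35474563 in GRCm38.p6, next to H2-Q7 at chr17:35439140-35443773.

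Immunoprecipitates showed the same order for H2-Q10. Its m6A RPKM was 47.2 and 53.3 for WT RT, 60.8 and 74.6 for WT cold, but 3.57 and 4.45 for cKO cold. In footprints it was at 67.7 and 51.6 RPKM for WT cold against 1.89 and 10.9 for cKO cold, from at least 165, 96, 4 and 28 reads. That difference was -3.36 ± 0.55 (limma adjusted p = 0.0174). It was -2.34 without cKO cold footprint replicate 1, still called, and no smaller without WT cold footprint replicate 2, where it was not called (limma adjusted p = 0.0765).

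Hepatocyte markers, 8 genes, were measured beside H2-Q10. Their input sums were 5.40 and 4.71 RPKM (WT RT), 19.9 and 17.2 (WT cold), then 7.25 and 17.9 (cKO cold), with 5, 6, 2, 4, 6 and 3 of the 8 at 0. Their footprint sums were 298 and 30.3 RPKM for WT cold against 17.9 and 28.7 for cKO cold. Alb, the main plasma protein made by the liver, had input values of 4.82 and 4.58 RPKM (WT RT), 17.6 and 13.1 (WT cold), then 5.01 and 7.95 (cKO cold). It was called lower in cKO cold than in WT cold (-1.14 ± 0.25, limma adjusted p = 0.0206). The only other hepatocyte marker tested in inputs, Serpina1a, went the other way. It was at 2.24 and 7.47 RPKM in cKO cold against 1.02 and 1.85 (1.13 ± 0.46) and was not called (limma adjusted p = 0.106). In footprints the 6 hepatocyte markers tested had cKO differences from -3.47 ± 1.16 (Ttr) to -0.16 ± 0.49 (Serpina1a), with a median of -1.74. None of the 6 was called by limma, with 2 at an unadjusted p under 0.05, beside 3878 of all 12763 genes. The part of these markers in the H2-Q10 difference was not tested.

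The 5 tested genes whose log2(RPKM + 1) followed H2-Q10 most closely over the 6 inputs, by Pearson correlation, were Tmem177 (0.994), Rassf6 (0.991), Pim1 (0.991), Ormdl3 (0.986) and Tmem80 (0.985). This is a description over 6 libraries in 3 conditions, chosen as the best of all tested genes. Rassf6 was at 1.88 and 2.75 RPKM in WT cold and listed at 0 in both cKO inputs. Pim1, a serine/threonine kinase, was at 24.3 and 31.0 RPKM against 10.4 and 8.75. Ormdl3, which restrains sphingolipid synthesis, was at 68.2 and 70.3 RPKM against 43.2 and 40.6. Tmem177 was at 3.35 and 3.23 RPKM against 1.06 and 1.08.

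Part of the upstream sequence of H2-Q10 differs from that of its paralogs. Class I promoters are known for a kappa B site, bound by NF-kappa B and Rel factors, just ahead of an interferon-stimulated element bound by IRF factors, with a cAMP element and a Y box nearer the start, where NLRC5 acts. The 3 stretches below, all upstream of the annotated gene, show H2-D1, which was lower in the cold, H2-Q7, whose fold change was larger, and H2-Q10, which was lower in cKO cold than in WT cold. They lie at chr17:35262914-35263028, chr17:35439012-35439126 and chr17:35469904-35470018 (plus strand), and capitals mark, in order, the kappa B site (GGGATTCCC), the IRF core (AANNGAAA, read here on the other strand), the core of the cAMP element (TGACG) and the Y box (ATTGG).
H2-D1: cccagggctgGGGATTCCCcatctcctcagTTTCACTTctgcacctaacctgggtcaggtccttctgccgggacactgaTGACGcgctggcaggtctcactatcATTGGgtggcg
H2-Q7: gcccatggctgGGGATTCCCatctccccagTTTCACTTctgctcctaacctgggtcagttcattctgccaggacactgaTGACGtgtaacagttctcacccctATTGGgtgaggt
H2-Q10: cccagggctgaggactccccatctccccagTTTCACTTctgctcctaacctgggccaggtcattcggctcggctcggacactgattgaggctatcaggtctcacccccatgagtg
In H2-Q10 the IRF core is the only match. At the place of the kappa B site of H2-D1 its letters are aggactccc, which differ at 2 of 9 positions, and its whole window held no Y box and no TGACG.

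Over all windows the kappa B site (GGGATTCCC or GGGAATCCC, either strand) was in 0.353%, and it was in 4 of the 14 class I genes with a window, H2-K1, H2-D1, H2-Q6 and H2-Q7. The IRF core was in 23.9% of all windows and 11 of 14 class I genes, the Y box in 37.4% and 12 of 14, and TGACG in 20.8% and 7 of 14. H2-Q4 had the IRF core, the Y box and TGACG without the kappa B letters. The part of any of these letters in the RNA differences was not tested.

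**Figure D3:**
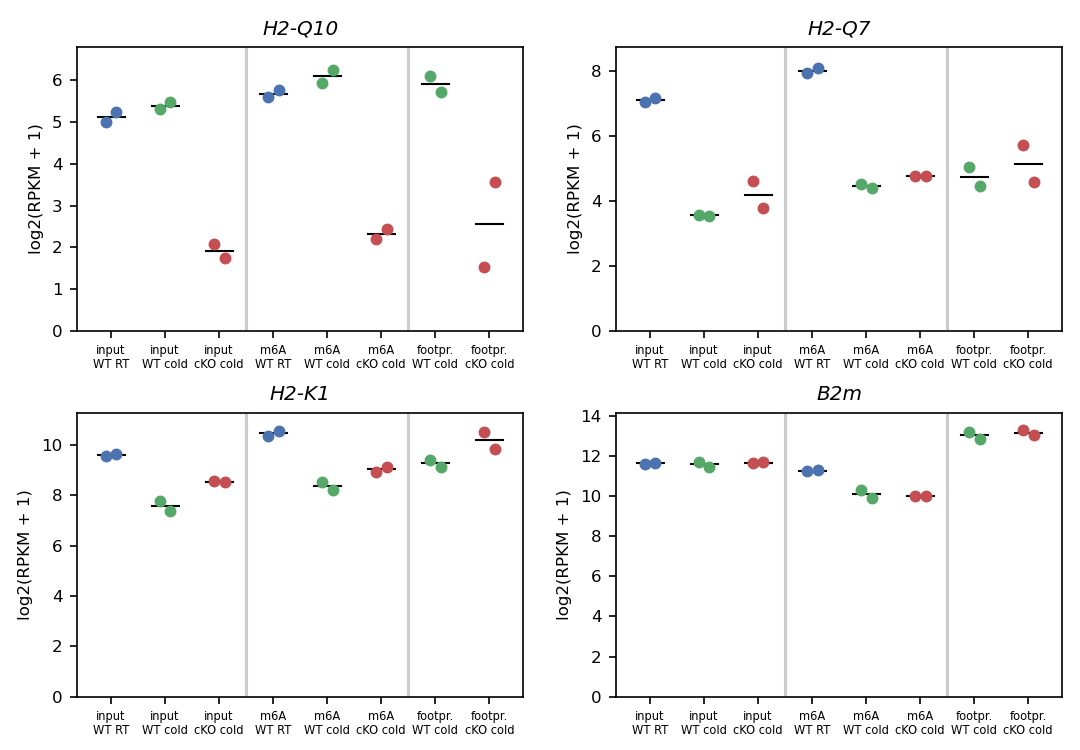
H2-Q10, H2-Q7, H2-K1 and B2m as log2(RPKM + 1) in all 16 libraries, by assay and condition; each point is 1 library and each bar the mean of 2. H2-Q10 is low in the 6 libraries labelled cKO (1.89 to 10.9 RPKM) and at 30.8 to 74.6 RPKM in the 10 others. Within the input and within the m6A libraries, H2-Q7 and H2-K1 are highest in WT RT, which has no footprints.

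Set against WT RT, cKO cold inputs held less of both classes. Class II stood at Cd74 -2.30 ± 0.42, H2-Aa -1.97 ± 0.34, H2-Ab1 -2.50 ± 0.42, H2-Eb1 -2.22 ± 0.41, H2-DMa -2.30 ± 0.40, H2-DMb1 -1.47 ± 0.27 and Ciita -3.33 ± 0.43. H2-K1 was at -1.07 ± 0.16 and H2-D1 at -1.06 ± 0.14, and the Q genes ranged from -2.04 ± 0.20 (H2-Q4) to -2.96 ± 0.18 (H2-Q6). H2-Q10 was at -3.21 ± 0.18 and B2m at 0.03 ± 0.17. In total 24 members were lower and none higher, beside 24.7% of all genes lower, and 19 of 20 without the 5 that entered through WT RT alone. Without WT RT input replicate 1, 13 of the 20 members then tested were lower.

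The anti-m6A immunoprecipitate over input shows, per gene, how much of its RNA the antibody retained relative to other genes of the library. It gives no fraction of methylated molecules. Classical and Q-region class I RNAs were retained above their input. H2-Q4 had 2.65 and 2.84 times its input RPKM in WT RT, 3.32 and 3.96 times in WT cold and 1.90 and 2.56 times in cKO cold (log2 1.45 ± 0.18, 1.77 ± 0.18 and 1.11 ± 0.18). H2-K1 had 1.72 and 1.89 times its input (WT RT), 1.68 and 1.79 (WT cold), then 1.30 and 1.51 (cKO cold) (0.85, 0.79 and 0.48, each ± 0.17), and all 3 were called. H2-Q7 (0.89, 0.91 and 0.58, each ± 0.21) and H2-Q6 (1.02, 0.66 and 0.81, each ± 0.19) were called in each condition as well. H2-D1 was called in both WT conditions (0.44 and 0.43, each ± 0.13) and was at 0.29 ± 0.13 in cKO cold (limma adjusted p = 0.098). H2-T24 was called in WT RT (0.65) and cKO cold (1.02) and was at 0.41 in WT cold, each ± 0.24.

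T-region genes H2-T22 and H2-T23 lay on the other side. H2-T22 kept 0.402 and 0.458 times its input RPKM in WT RT (-1.19 ± 0.15), and was at -1.03 and -0.91 in WT cold and cKO cold, each ± 0.15. H2-T23 was at -0.53, -0.80 and -0.55, each ± 0.15. All 6 of these values were called. H2-Q10 sat with the Q genes, at 0.57 and 0.70, each ± 0.17, in WT RT and WT cold, both called, and at 0.41 ± 0.17 in cKO cold (limma adjusted p = 0.0773), where it had 29 and 18 input reads.

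Class II RNAs were mostly retained at or below their input, as was the median gene of the table. The class II medians were -0.59 (WT RT), -0.31 (WT cold) and -0.34 (cKO cold). Those of all genes were -0.25, -0.11 and -0.30. H2-Aa kept 0.466 and 0.470 times its input (WT RT), 0.268 and 0.436 (WT cold), then 0.331 and 0.329 (cKO cold) (-1.09, -1.49 and -1.58, each ± 0.39), called in all 3 conditions. H2-Oa was called lower in WT RT (-0.96 ± 0.23) and H2-DMb1 in cKO cold (-1.06 ± 0.36). H2-Eb1 was between -0.98 and -0.85 in the 3 conditions, each ± 0.42, and Cd74 between -0.57 and -0.47, each ± 0.47, with none called. Ciita was the class II exception, with 2.04 and 2.37 times its input in WT RT (1.12 ± 0.50, limma adjusted p = 0.0898). H2-Ke6 was called lower in WT RT (-0.49 ± 0.12).

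B2m, the most abundant member, was retained below its input in the cold. Its ratio stood at 0.766 and 0.781 for WT RT, at 0.376 and 0.344 for WT cold, then at 0.324 and 0.311 for cKO cold. This gave -0.37 ± 0.17 (limma adjusted p = 0.0919), -1.48 ± 0.17 (limma adjusted p = 0.000115) and -1.66 ± 0.17 (limma adjusted p = 4.27e-05). The lowest WT RT ratio was above the highest cold ratio by more than the spread within either. The difference between WT cold and WT RT was -1.10 ± 0.24 and was not called (limma adjusted p = 0.14). With replicate numbers as a block it was called (limma adjusted p = 0.0144).

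Counts over the members were 7 higher and 5 lower in WT RT, beside 16% and 34.6% of all 13062 genes tested. In WT cold they were 6 higher and 4 lower, beside 13.7% and 25.6%, and in cKO cold 5 higher and 5 lower, beside 11.4% and 35.2%. Of the 11 class I genes, 6, 5 and 5 were higher and 2 lower in each condition, and of the 11 class II genes none was higher and 2, 1 and 2 were lower. With the block, 8 members were higher and 11 lower in WT RT (21.3% and 40.6% of all genes), 6 and 8 in WT cold (19.4% and 31.9%), and 8 and 9 in cKO cold (16.1% and 42.2%). The block added class II genes in particular: 7, 4 and 6 of them were lower and Ciita was higher in WT RT (limma adjusted p = 0.000253) and cKO cold (limma adjusted p = 0.00575).

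**Figure D4:**
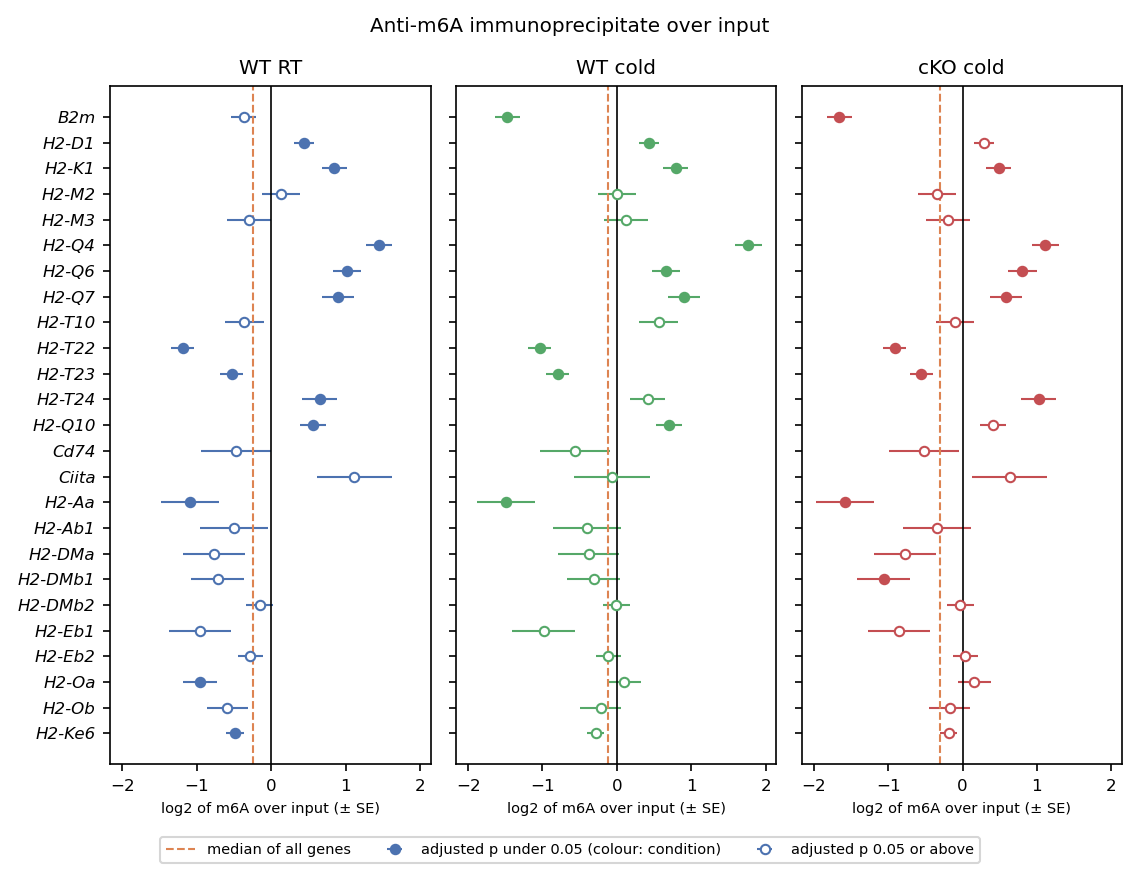
Log2 of anti-m6A immunoprecipitate over input RPKM + 1 with its SE, 2 libraries of each kind a condition, in WT RT, WT cold and cKO cold; filled points have a limma adjusted p under 0.05, and the dashed line is the median of all 13062 genes. H2-Q4 lies farthest right in every panel (1.11 to 1.77), and B2m moves from -0.37 in WT RT to -1.48 and -1.66 in the cold.

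Changes of this ratio between conditions were not called for any member by limma. For cold against room temperature, 0 of 25 were called, beside 0.0612% of all genes. At an unadjusted p under 0.05 were 3 members, beside 1486 of all 13062 genes. The block called 2 lower, B2m and Ciita (-1.18 ± 0.21, limma adjusted p = 0.0364, both with the block), beside 0.367%. For cKO against WT in the cold, 0 were called, beside 0% of all genes. At an unadjusted p under 0.05 was 1 member, beside 1311 of all 13062 genes. With the block 0 members were called, beside 3.04% of all genes called lower and 0.0612% called higher. On that fit 4 members were at an unadjusted p under 0.05, beside 2520 of all 13062 genes. Without the block, the 1 member was H2-Q4, at -0.66 ± 0.26 (limma adjusted p = 0.402).

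Ribosome footprints were made for the cold groups only, and their RPKM values are per coding length, so they are not directly comparable with input levels. Footprints of classical class I chains were at 680 and 557 RPKM for H2-K1 with WT cold and at 1470 and 926 with cKO cold (0.92 ± 0.29, limma adjusted p = 0.0827), and at 659 and 554 against 1008 and 704 for H2-D1 (0.48 ± 0.27). The groups did not overlap in either gene, and neither was called. H2-T23 was at 96.0 and 88.1 RPKM against 175 and 87.7, H2-Q4 at 35.0 and 26.2 against 63.7 and 33.9, and B2m at 9422 and 7256 against 10014 and 8322.

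Class II footprints were abundant in these cold libraries. Cd74 was at 2723 and 2351 RPKM for WT cold against 8243 and 2926 for cKO cold (0.96 ± 0.55, limma adjusted p = 0.268), H2-Aa at 742 and 537 against 1435 and 677 (0.64 ± 0.45) and H2-Eb1 at 483 and 341 against 969 and 446 (0.69 ± 0.49). Replicate 1 of cKO cold was again the highest library in each. The 4 class II genes at the floor of the cold inputs were all present: H2-Ob at 31.2 and 29.4 RPKM for WT cold against 113 and 18.3 for cKO cold, H2-Oa at 16.5 and 17.5 against 28.2 and 7.57, H2-DMb2 at 20.4 and 10.7 against 35.2 and 12.1, and H2-Eb2 at 17.2 and 14.0 against 35.8 and 11.9. For each of the 4, cKO replicate 1 lay above both WT libraries and replicate 2 below at least 1 of them. H2-M2, without a read in WT cold inputs, had 18.7 and 6.11 RPKM of footprints for WT cold against 20.6 and 4.78 for cKO cold.

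B cell markers had the same order over the footprint libraries as H2-Ob. Their sums were 312 and 195 RPKM for WT cold and 616 and 181 for cKO cold, against at most 4.08 in the cold inputs. H2-Eb2 shared that order, whereas H2-Oa (16.5 and 17.5 RPKM in WT cold) and H2-DMb2 did not. T cell markers (298, 234, 687 and 253 RPKM) and lymph node markers (485, 626, 936 and 372) were also present in these footprints. Cd79a, part of the B cell receptor, was at 112 and 71.5 RPKM and 270 and 68.8 in these footprints, and at 0 in both WT cold inputs. B cell markers were thus at or near 0 in cold inputs and present in footprint libraries of the same label.

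**Figure D5:**
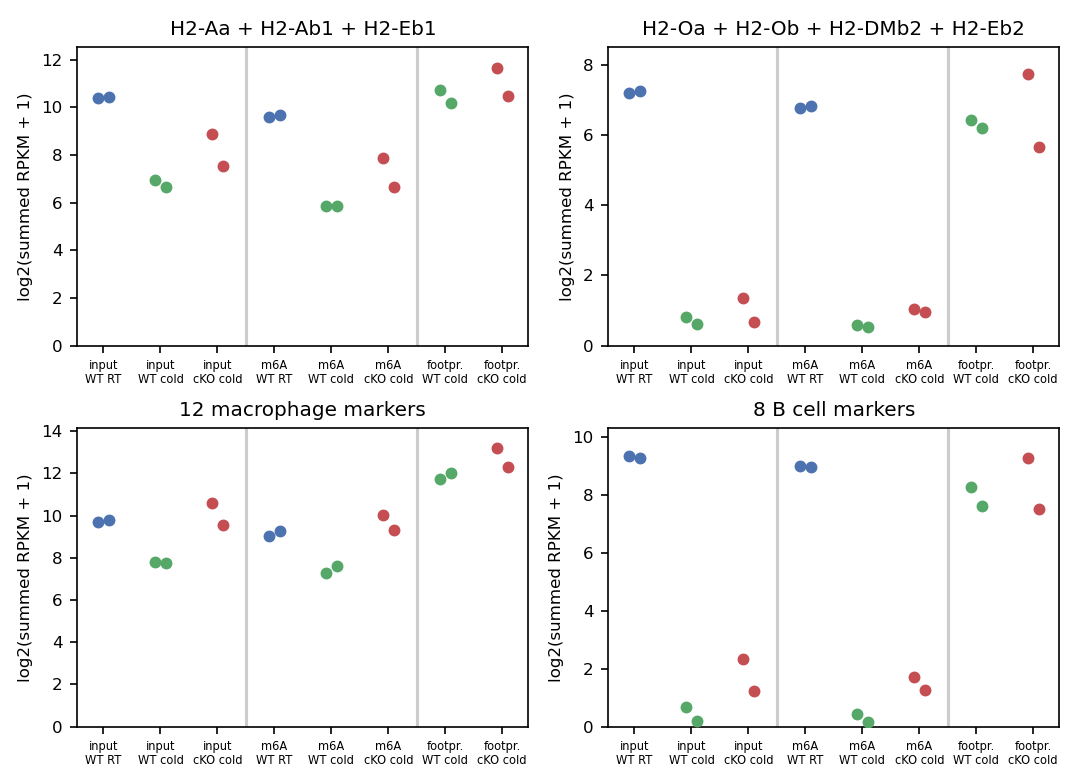
Summed RPKM, as log2 of the sum + 1, of 3 class II chains, of the 4 class II genes at the floor of the cold inputs, of 12 macrophage markers and of 8 B cell markers, in all 16 libraries by assay and condition (1 point a library). The 4 low class II genes and the B cell markers are near 0 in cold input and m6A libraries and high in cold footprints, and cKO replicate 1 (left of each pair) exceeds replicate 2 in all 4 panels' footprints.

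Over the 25 members tested, 1 was lower in cKO footprints, H2-Q10, beside 1.54% of 12763 genes, and none was higher, beside 5.61%. An unadjusted p under 0.05 by limma was found for 5 members, beside 3878 of all 12763 genes. The median over members was 0.46 and over all genes 0.42. In the interaction test of footprints over input, 0 members were called, beside 0% of all genes. At an unadjusted p under 0.05 was 1, H2-DMb1 (-1.54 ± 0.55), beside 459 of all 12763 genes. H2-Q10 was at 0.13 ± 0.77 there, a wide error. The B cell markers given above were near 0 in cold inputs and present in cold footprints, so the 2 assays differ in cell markers under the same label, and the part of that difference in a footprint-over-input value was not tested.

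Genes that serve both pathways were counted from lists chosen with earlier results of these data known. Of 13 genes of class I peptide supply and loading, 12 were lower in the cold and none higher, beside 51.2% of all genes lower, with a median of -1.19 beside -0.67 for all genes. The 4 called changes of largest size were those of Tap1, a subunit of the peptide transporter (-2.92 ± 0.21), the immunoproteasome subunits Psmb8 (-2.90 ± 0.20) and Psmb9 (-2.71 ± 0.35), and Psmb10 (-2.21 ± 0.25). With median-ratio scaling 6 were lower, beside 20.5% of all genes, and 1 higher, beside 18.8%. In cKO cold 7 of the 13 were higher than in WT cold, beside 23.6% of all genes, with a median of 0.53 beside 0.40, led by Psmb10 (1.01 ± 0.25), Pdia3 (0.99 ± 0.17) and Calr (0.96 ± 0.17), and with median-ratio scaling none was called. None was called in footprints by limma, with 9 at an unadjusted p under 0.05, beside 3878 of all 12763 genes.

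Regulators of the 2 classes fell in the cold as well: 10 of 11 were lower and none higher, beside 51.2% of all genes lower, with a median of -1.48 beside -0.67. With median-ratio scaling 8 were lower, beside 20.5%. Irf8 (-4.30 ± 0.27), a factor of myeloid and B cells, led, then Nlrc5, the class I coactivator (-2.46 ± 0.31), Irf1 (-2.40 ± 0.15) and Rfx5, the X box factor (-2.25 ± 0.23). In cKO cold 3 were higher, Irf8 (1.63 ± 0.27), Creb1 (0.83 ± 0.21) and Irf1 (0.81 ± 0.15), beside 23.6% of all genes, and with median-ratio scaling 1 was, beside 5.97%.

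Of 10 genes of class II peptide supply and trafficking, 2 were lower in the cold and 1 higher, beside 51.2% and 6.52% of all genes, with a median of -0.08 beside -0.67. Ctss, the cathepsin that trims the invariant chain, was at -3.25 ± 0.43 and March1, the ubiquitin ligase that removes class II molecules from the surface, at -2.67 ± 0.28, while the lysosomal protease Ctsd was at 0.75 ± 0.12. With median-ratio scaling 7 were higher, beside 18.8%, and 2 lower. In cKO cold 5 of the 10 were higher, beside 23.6% of all genes (3 with median-ratio scaling, beside 5.97%), Ctss (2.87 ± 0.43), Lgmn (1.79 ± 0.26), Ctsl (1.23 ± 0.15) and Ctsb (0.94 ± 0.16) among them, and Ctsl was also higher in footprints (1.09 ± 0.25, limma adjusted p = 0.0398). Of 6 tested class I-like genes outside the H2 region, Procr was lower in the cold (-1.14 ± 0.27) and Cd1d1, which presents lipids, higher (0.42 ± 0.12), beside 51.2% and 6.52% of all genes. With median-ratio scaling none of the 6 was lower, Procr included, and 3 were higher, beside 18.8%. Cd1d1 (0.95 ± 0.12) and Hfe, the iron regulator that pairs with B2m (0.63 ± 0.18), were higher in cKO cold, beside 23.6%, and none of the 6 was with median-ratio scaling.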

How the data were processed

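Adipose tissue of mice was profiled as input RNA, anti-m6A immunoprecipitate and ribosome footprints, in 8 groups of 2 libraries. The authors deposited 1 table of RPKM values per gene. Reads were aligned with HISAT2 to mm10, per the submitters' processing notes, and libraries were made with a small RNA kit, per the labels' protocols. The counting tool, its annotation and its treatment of multiply mapping reads are not given in the sources used here.

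RPKM values came out as whole multiples of 1 read for all 17883 genes (100%, to within 0.001 reads). Only genes above 0 in at least 2 libraries could fail this check. These were 16636 genes in input and m6A libraries and 13554 in footprints, and all passed. The gene lengths that the values imply were first divided by a fitted common scale, 1 in input and m6A libraries and 1.085 in footprints. They were then whole numbers of bases for 85.2% of 17664 genes in input and m6A libraries. In footprints they were multiples of 3 for 78.7% of genes (each to within 0.02 of a multiple). Of the gene IDs, 17871 matched the reference names, and 25 symbols turned into dates were restored.

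Differences were fitted to the whole table with limma 3.58.1 (R 4.3.3; empirical Bayes with trend, two-sided) on log2(RPKM + 1), keeping a gene if 2 or more libraries of the fit reached 1 RPKM. The input contrasts used 1 fit of 6 libraries, m6A over input 1 fit of 12 and footprints 1 fit of 8 cold libraries. The fits were tested on simulated data. The members, gene lists and motifs were chosen with earlier results of these data known. The rule for naming genes was that each member past the filter is named, with the 5 genes closest to H2-Q10 and at most 4 per list, those of largest called change. The main fits did not pair libraries, since the labels do not say that replicate numbers pair them. Only the replicate block, an alternative, used these numbers. Within a condition, deviations of same-numbered libraries correlated at 0.288 to 0.628 in the 7 pairs of assays over 9682 genes. Across conditions they did not (-0.087 to 0.082).

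Alternatives were pseudocounts of 0.1 and 0.5, no filter, a filter of 5 RPKM, median-ratio and quantile scaling, a replicate block, all 16 libraries in 1 fit, and each library left out. Promoter windows and gene positions are from RefSeq (GRCm38.p6). No stretch of H2-K1 or H2-Eb2 is printed, since theirs lie inside the annotated gene.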

Additional observations from a re-analysis of the deposited data

How the results depend on the processing

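Counts of members called stood within 1.5 times of those reported under every alternative except the following. For cKO against WT cold input (10 members), median-ratio scaling called 4 and quantile scaling 5. For m6A over input, the replicate block called 19 members in WT RT (12 reported) and 17 in cKO cold (10 reported), whereas 1 fit of all 16 libraries called 6 in each of these and 6 in WT cold (10 reported). For the cold change of m6A over input (0 reported), quantile scaling called 1 and the replicate block 2. For cKO footprints (1 reported), median-ratio and quantile scaling each called 2 and the fit of all 16 libraries 4. The block changed no other count by over 1.5 times, and it could not be fitted to the footprint contrast alone. The causes were not tested.

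With each library left out in turn, the members called ranged from 17 to 23 for the cold input change, from 5 to 15 for cKO against WT cold input, and from 13 to 24 for cKO cold against WT RT. For m6A over input they ranged from 6 to 15 in WT RT, from 7 to 11 in WT cold and from 6 to 13 in cKO cold. For cKO footprints they ranged from 0 to 1, and for the 3 interaction tests they stayed at 0. Of single values of members, 1 called value changed sign, that of H2-Ke6 in the cold (0.045 with median-ratio scaling). Of 1973 values under alternatives other than leaving out a library, 51 lost a call and 40 gained one, and of 2316 with a library left out, 78 lost and 29 gained one. Depth limits the low members: 0 reads in an input group can only be given as a bound, and footprint totals were smaller than those of input.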
